A study of Danio rerio with 24 samples.

Results

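Pre-mRNA splicing factors and heterogeneous nuclear ribonucleoproteins (hnRNPs) were followed in zebrafish embryos before and after the maternal-to-zygotic transition, with and without TDCIPP, a chlorinated organophosphate used as a flame retardant. The genes were taken by name: every transcript cluster of the array that carried a single gene symbol beginning with srsf, hnrnp, snrp, sf3a or sf3b. This gave 60 clusters of 56 genes, of 19260 genes with a single symbol and 61240 transcript clusters tested, and of several clusters of a gene the brightest on average was kept. Another 5 clusters that carry a symbol of these families together with a second symbol were left out, so hnrnpa0a, hnrnpabb, hnrnpa1b and sf3a1 are not among the 56 genes. All 56 symbols matched a current zebrafish gene.

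Viable embryos of the 5D strain were exposed in glass beakers from 0.75 hours post-fertilization (hpf), the 2-cell stage, either to vehicle (0.1% DMSO) or to 2 µM TDCIPP, and were collected at 2 hpf, during cleavage, or at 6 hpf, in the early gastrula. The 4 groups therefore were DMSO at 2 hpf, TDCIPP at 2 hpf, DMSO at 6 hpf and TDCIPP at 6 hpf. Each group had 3 pools of 25 whole embryos, and total RNA of each pool was hybridized to 2 Zebrafish Gene 1.0 ST arrays, which were averaged. No embryo was left untreated, since the controls received the vehicle, and the TDCIPP stock was itself dissolved in DMSO.

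Splicing removes introns from nuclear transcripts through the spliceosome, in which small nuclear ribonucleoproteins (snRNPs) recognize the splice sites and the branch point. SR proteins, encoded by the srsf genes, mostly bind exons and promote the use of nearby splice sites, whereas many hnRNPs bind the same transcripts and repress or shift that use. Early zebrafish cleavage runs on RNA and protein laid down by the mother, with very little transcription, and most new transcripts appear once the embryonic genome is switched on, between the pair of stages sampled here.

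The deposited values are log2 signals after robust multichip analysis, which brings all arrays to a shared distribution, so every value is relative to the rest of its array. Array medians were 4.32 to 4.46 at 2 hpf and 4.47 to 4.54 at 6 hpf. Over all tested clusters, arrays of 1 pool correlated at 0.985 to 0.993 and arrays of different pools of a group at 0.983 to 0.991. The stage labels were compared with 13 maternal and 15 zygotic marker genes, from lists chosen with earlier results of these data known. In DMSO pools 10 of the 13 maternal markers fell from 2 to 6 hpf and 1, stm, rose by 6.32 log2 units. All 15 zygotic markers rose, and the counts in TDCIPP pools were identical. At 6 hpf, TDCIPP and DMSO differed by -0.80 to 0.65 log2 units over the 15 zygotic markers. Of these, 4 had an unadjusted p under 0.05 (limma), against 5.48% of all clusters, and 0 passed an adjusted p under 0.1. Whether the pools of the 2 treatments were at the same point of development at 6 hpf was not tested here. At a slightly lower TDCIPP concentration, the paper scored most embryos at 6 hpf as delayed in epiboly, at an earlier stage than untreated embryos. It described the toxicity of 2 µM as similar. Comparisons of TDCIPP with DMSO at 6 hpf may therefore include a difference in stage. For the 56 splicing genes, the 2 arrays of a pool differed by a median of 0.11 log2 units and by at most 0.71, and the SD over the 3 pools of a group had a median of 0.08. In whole embryos, a smaller share of cells that express a gene and less RNA per cell cannot be told apart, nor can a maternal transcript and a newly made one.

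From 2 to 6 hpf, 49 of the 56 genes rose in DMSO pools, 2 fell and 5 were not called (limma, Benjamini-Hochberg adjusted p under 0.1 over all clusters). The background was a rise of 20% and a fall of 19.9% of all transcript clusters. Among genes with a single symbol and a mean log2 signal of at least 5, the intensity range of most of these genes, 20.7% rose and 48.2% fell. The median change of the 56 genes was 0.72 log2 units, with a range of -0.56 to 3.66, against a median of 0.01 for all clusters and -0.25 for the genes with a mean signal of at least 5.

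The TDCIPP pools, which share no embryos with the DMSO pools, gave the same measure a second time. There 51 of the 56 genes rose, 2 fell and 3 were not called, with a background of 20.7% higher and 19.5% lower. The median change was 0.73. Calls in the 2 treatments are not independent, because both tests used 1 estimate of each gene's spread over all 12 pools. In both treatments 48 of the genes rose and 2 fell, against 16% of all clusters that rose in both and 16.7% that fell in both. The changes in the 2 treatments lay within 0.25 log2 units of each other for 52 of the 56 genes. The share of all clusters for which this held was not computed, so it is not shown to be particular to these genes.

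The pools of the 2 stages did not overlap, in the direction of a rise, for 50 of the 56 genes in DMSO, where this held for 22.6% of all clusters, and for 50 in TDCIPP, where it held for 24.5%. Rises of at least 1 log2 unit were called for 15 genes in DMSO (6.65% of all clusters) and 13 in TDCIPP (6.29%). Another 27 genes rose by 0.5 to 1 log2 unit in DMSO and 7 by less than 0.5. Most of the group therefore moved by a modest amount in the same direction, but the shares of all clusters in these ranges were not computed. The median signal of the 56 genes was 8.44, 8.24 and 8.40 in the DMSO pools and 8.37, 8.37 and 8.36 in the TDCIPP pools at 2 hpf. At 6 hpf it was 9.29, 9.27 and 9.22 with DMSO and 9.15, 9.18 and 9.21 with TDCIPP, so every pool at 6 hpf lay above every pool at 2 hpf.

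**Figure D1:**
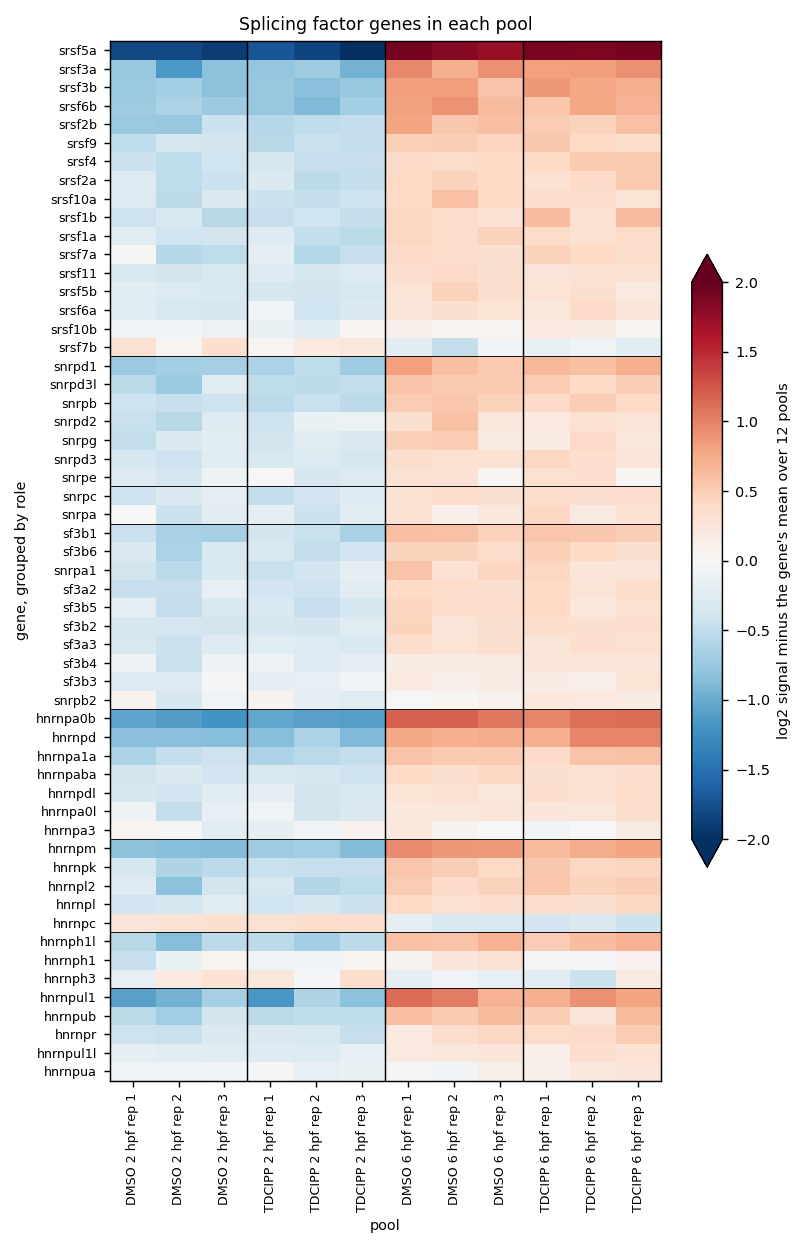
Heat map of the log2 signal of each of the 56 genes (rows, grouped by role) in each of the 12 pools (columns), shown as the difference from that gene's mean over the 12 pools, with colours ending at -2 and 2. Most genes are below their mean in the 6 pools at 2 hpf and above it in the 6 pools at 6 hpf, with srsf7b and hnrnpc running the other way.

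SR proteins made up the largest family. Counts for this and the following families are to be read against the shares of all clusters. These were 20% higher and 19.9% lower in DMSO pools, and 20.7% and 19.5% in TDCIPP pools. Of 17 srsf genes, 15 rose and 1 fell in DMSO pools, and 16 rose and 1 fell in TDCIPP pools, with median changes of 0.82 and 0.84 log2 units.

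The widest change of all 56 genes was that of srsf5a (transcript cluster 13005003), whose mammalian counterpart is an SR protein that promotes the inclusion of exons. Its log2 signals were 7.39, 7.39 and 7.30 in DMSO pools and 7.49, 7.35 and 7.08 in TDCIPP pools at 2 hpf. At 6 hpf they were 11.11, 11.02 and 10.94 in DMSO pools and 11.09, 11.08 and 11.11 in TDCIPP pools. The 6 late pools stood far above the 6 early pools and differed little among themselves. The rise was 3.66 log2 units (SE 0.10, 12.7-fold, limma adjusted p = 7.79e-12) in DMSO and 3.78 (SE 0.10, 13.8-fold, adjusted p = 6.52e-12) in TDCIPP.

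Both srsf3 genes also rose. They encode the shortest SR protein, which in mammals links splicing to mRNA export. For srsf3a, DMSO pools gave 6.76, 6.36 and 6.68 at 2 hpf and 8.46, 8.23 and 8.42 at 6 hpf. For srsf3b they gave 6.90, 6.97 and 6.83, then 8.49, 8.48 and 8.22. The early and late pools were well apart for both genes. The rises were 1.77 (SE 0.12) and 1.49 (SE 0.10) log2 units in DMSO, and 1.66 and 1.57 in TDCIPP.

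The fall among the SR genes was that of srsf7b, which had a low signal throughout. Its DMSO pools gave 4.80, 4.55 and 4.82 at 2 hpf and 4.28, 4.02 and 4.44 at 6 hpf, and its TDCIPP pools gave 4.55, 4.69 and 4.72, then 4.35, 4.41 and 4.28. The early pools were above the late pools within each treatment, although the whole range sat near the array medians given above. The change was -0.48 log2 units (SE 0.12, limma adjusted p = 0.00502) in DMSO and -0.31 (SE 0.12, adjusted p = 0.0586) in TDCIPP, and the TDCIPP call was lost when any of 4 single TDCIPP pools was left out, with adjusted p-values of 0.112 to 0.155.

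For srsf10b the TDCIPP pools gave 8.74, 8.66 and 8.91 at 2 hpf and 9.07, 9.04 and 8.91 at 6 hpf, and the DMSO pools gave 8.80, 8.82 and 8.75, then 8.97, 8.93 and 8.91. The stages overlapped in TDCIPP pools and did not in DMSO pools. The change was 0.23 log2 units in TDCIPP (limma adjusted p = 0.0649, not called at a threshold of 0.05) and 0.15 in DMSO (adjusted p = 0.251), and the difference between these changes was 0.08 (95% interval -0.19 to 0.36, adjusted p = 1.00). The remaining srsf genes rose in both treatments, in DMSO by 0.58 for srsf6a to 1.48 for srsf6b.

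**Figure D2:**
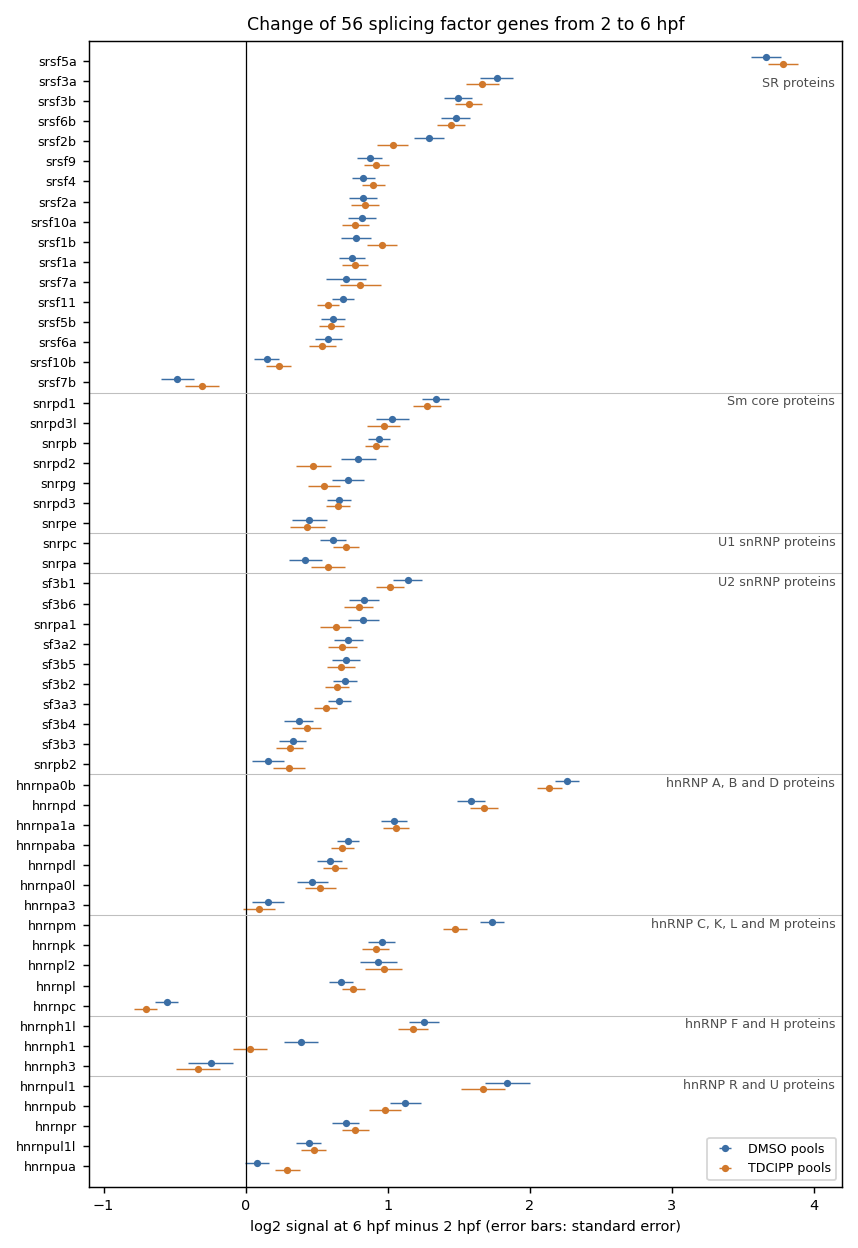
Change in log2 signal from 2 to 6 hpf for each of the 56 genes, grouped by role, in DMSO pools (blue) and TDCIPP pools (orange), 3 pools per stage and treatment, with bars of 1 standard error. Nearly all points lie to the right of 0, the pair of points of a gene mostly lie within 0.25 log2 units of each other, and srsf5a stands at 3.66 and 3.78.

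Sm proteins form the ring that holds the spliceosomal small nuclear RNAs. All 7 measured Sm genes rose in both treatments, with median changes of 0.79 log2 units in DMSO and 0.65 in TDCIPP. The widest rise was that of snrpd1, with 6.68, 6.73 and 6.74 in DMSO pools at 2 hpf and 8.22, 8.01 and 7.93 at 6 hpf. No early pool came near a late pool. Its change was 1.34 log2 units (SE 0.10, limma adjusted p = 8.38e-08) in DMSO and 1.28 in TDCIPP. The Sm genes snrpd3l and snrpb followed with 1.03 and 0.94 in DMSO and 0.97 and 0.92 in TDCIPP, and the narrowest rise was that of snrpe at 0.45 and 0.43.

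The name rule took 2 genes of proteins particular to the U1 snRNP, which binds the 5′ splice site, and both rose. It does not cover every U1 gene. The gene for the U1 C protein, snrpc, changed by 0.62 log2 units (SE 0.09) in DMSO and 0.71 in TDCIPP, and the gene for U1 A, snrpa, by 0.42 (SE 0.12) and 0.58.

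The U2 snRNP binds the branch point, and its SF3a and SF3b subcomplexes stabilize that contact. Of the 10 U2 genes that the name rule took, which are not all of the U2 genes, 9 rose in DMSO pools. In TDCIPP pools all 10 rose, and the medians were 0.70 and 0.64 log2 units. The gene for the large branch-point subunit, sf3b1, gave 8.90, 8.69 and 8.69 in DMSO pools at 2 hpf and 9.95, 9.93 and 9.81 at 6 hpf. The stages were separate in these pools, as they were in the TDCIPP pools, which gave 8.98, 8.90 and 8.70, then 9.90, 9.88 and 9.84. The rise was 1.14 (SE 0.10, limma adjusted p = 5.41e-07) in DMSO and 1.01 in TDCIPP, the widest of the 10 genes. The changes of sf3b6, whose product contacts the branch-point adenosine, were 0.83 and 0.79, and those of snrpa1, which encodes U2 A′, were 0.83 and 0.63. The U2 gene not called in DMSO was snrpb2, which encodes U2 B″. Its change was 0.16 log2 units there (95% interval -0.09 to 0.40) and 0.31 in TDCIPP. These changes differed by 0.15 (95% interval -0.19 to 0.50), and the interaction test of that difference did not pass.

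In the hnRNP A, B and D families, 6 of 7 genes rose in each treatment, with medians of 0.72 and 0.68 log2 units. The widest rise was that of hnrnpa0b (transcript cluster 13011539), a member of a family that in mammals binds AU-rich elements as well as pre-mRNA. Its signals were 8.79, 8.73 and 8.66 in DMSO pools and 8.82, 8.77 and 8.75 in TDCIPP pools at 2 hpf, and 11.03, 11.03 and 10.90, then 10.82, 10.95 and 10.97, at 6 hpf. Each stage formed a tight set and the sets were far apart. The change was 2.26 log2 units (SE 0.09, 4.79-fold, limma adjusted p = 1.23e-10) in DMSO and 2.14 (4.40-fold) in TDCIPP.

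The gene hnrnpd encodes AUF1, a factor that in mammals controls the decay of mRNAs with AU-rich elements. Its DMSO pools gave 6.51, 6.52 and 6.50 at 2 hpf and 8.13, 8.06 and 8.10 at 6 hpf. Its TDCIPP pools gave 6.50, 6.72 and 6.47, then 8.07, 8.33 and 8.33. The DMSO pools of a stage were almost identical, the TDCIPP pools were more scattered, and the stages were far apart in both. The rise was 1.58 log2 units (SE 0.10) in DMSO and 1.68 in TDCIPP. The splice-site repressor gene hnrnpa1a changed by 1.04 and 1.06. The gene not called in either treatment was hnrnpa3, at 0.16 and 0.09, with a mean signal of 3.99, below the array medians.

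The families with other RNA-binding preferences split. Of 5 genes of the C, K, L and M families, 4 rose and hnrnpc fell in both treatments. For hnrnpm, DMSO pools gave 7.60, 7.56 and 7.54 at 2 hpf and 9.35, 9.27 and 9.26 at 6 hpf, while TDCIPP pools gave 7.69, 7.71 and 7.55, then 9.04, 9.15 and 9.19. Its rise was 1.73 log2 units (SE 0.09, limma adjusted p = 1.76e-09) in DMSO and 1.48 in TDCIPP. The poly(C)-binding gene hnrnpk rose by 0.96 and 0.91, and hnrnpl2, of the family that binds CA repeats, by 0.93 and 0.97.

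The product of hnrnpc (transcript cluster 13083229) binds uridine tracts on nascent transcripts. Its DMSO pools gave 7.80, 7.81 and 7.86 at 2 hpf and 7.35, 7.23 and 7.22 at 6 hpf. Its TDCIPP pools gave 7.84, 7.89 and 7.89, then 7.15, 7.25 and 7.11. All 6 late pools lay below all 6 early pools, opposite to most of the other genes. The change was -0.56 log2 units (SE 0.08, limma adjusted p = 9.09e-05) in DMSO and -0.70 (SE 0.08, adjusted p = 9.94e-06) in TDCIPP. Of the 2 genes that fell, hnrnpc was the one with a signal well above the array medians.

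Among the 3 genes of the F and H families, which bind G-rich sequence, hnrnph1l rose by 1.26 log2 units (SE 0.11) in DMSO and 1.18 in TDCIPP. The gene hnrnph1 was called in DMSO pools at 0.39 (SE 0.12, limma adjusted p = 0.0225) and not in TDCIPP pools at 0.03 (adjusted p = 0.883). The difference between these changes was 0.36, the widest of the 56 genes, and the test of that difference itself did not pass (limma interaction over 12 pools, adjusted p = 1.00). The third of them, hnrnph3, was not called in either treatment, with changes of -0.25 and -0.34 and a mean signal of 2.73, also below the array medians.

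Of 5 genes of the R and U families, 4 rose in DMSO and 5 in TDCIPP. For hnrnpul1, a relative of hnRNP U, DMSO pools gave 6.71, 6.85 and 7.13 at 2 hpf and 8.91, 8.82 and 8.49 at 6 hpf. The pools of a stage were more scattered than for most of the other genes but the stages were well apart. The rise was 1.84 log2 units (SE 0.16, limma adjusted p = 4.11e-07) in DMSO and 1.67 in TDCIPP. The gene hnrnpub, for a protein that binds RNA and chromatin, rose by 1.12 and 0.98, and hnrnpr by 0.70 and 0.77.

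Zebrafish genes whose symbols differ only in a final a or b are mostly copies from the genome duplication of bony fishes, and for 8 such pairs both copies were among the 56 genes. For each pair the signal of the b gene was subtracted from that of the a gene in every pool and the difference was compared between stages by an exact permutation test, two-sided, with the stage labels permuted within each treatment (400 arrangements, smallest possible p 0.005). This compares changes and not levels, since the signals of different probes are not on a shared scale. Whether changes at unlike mean signals, such as 9.91 for srsf2a and 6.61 for srsf2b, are on a shared scale was not tested. In 6 of the 8 pairs the copies changed by different amounts at that smallest p, without correction for the 8 pairs. How often pairs of other genes reach that p was not computed, so the count is not shown to be particular to these copies.

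The widest gap was that of srsf5. While srsf5a rose by 3.66, srsf5b rose by 0.62 log2 units in DMSO, from 6.48, 6.42 and 6.39 to 6.96, 7.16 and 7.02. The gap between the changes was 3.11 log2 units as the mean of both treatments (exact p = 0.005). Both copies rose, but the 6 early and 6 late pools were much further apart for the a gene.

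For srsf7, an SR protein gene related to srsf3, the copies moved in opposite directions. The a gene gave 9.19, 8.61 and 8.67 in DMSO pools at 2 hpf and 9.56, 9.53 and 9.49 at 6 hpf, a rise of 0.71, while srsf7b fell as described above. The gap was 1.15 log2 units (exact p = 0.005), with the b gene's signal near the array medians.

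In the remaining pairs of this size the b gene moved more. For srsf6 the b gene rose from 6.51, 6.58 and 6.49 to 8.03, 8.12 and 7.85 in DMSO pools, by 1.48 against 0.58 for the a gene, a gap of -0.90 (exact p = 0.005). For hnrnpu the a gene gave 9.37, 9.38 and 9.41 at 2 hpf and 9.42, 9.41 and 9.58 at 6 hpf in DMSO pools, a change of 0.08 that was not called, while hnrnpub gave 9.13, 8.98 and 9.31, then 10.28, 10.20 and 10.31. Only the b gene separated the stages in DMSO pools. In TDCIPP pools hnrnpua separated them too, with 9.43, 9.29 and 9.33, then 9.56, 9.67 and 9.71, a rise of 0.29 (limma adjusted p = 0.0170). The gap was -1.04 in DMSO and -0.69 in TDCIPP, with a mean of -0.86 (exact p = 0.005).

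Smaller gaps were 0.61 for srsf10 and -0.33 for srsf2, both at exact p = 0.005, with the latter made of -0.47 in DMSO and -0.20 in TDCIPP. The srsf2 gap was -0.19 (exact p = 0.125) on the first array of each pool alone and -0.163 without replicate 1. The gaps of srsf3 (0.18, exact p = 0.145) and srsf1 (-0.11, exact p = 0.185) did not pass.

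**Figure D3:**
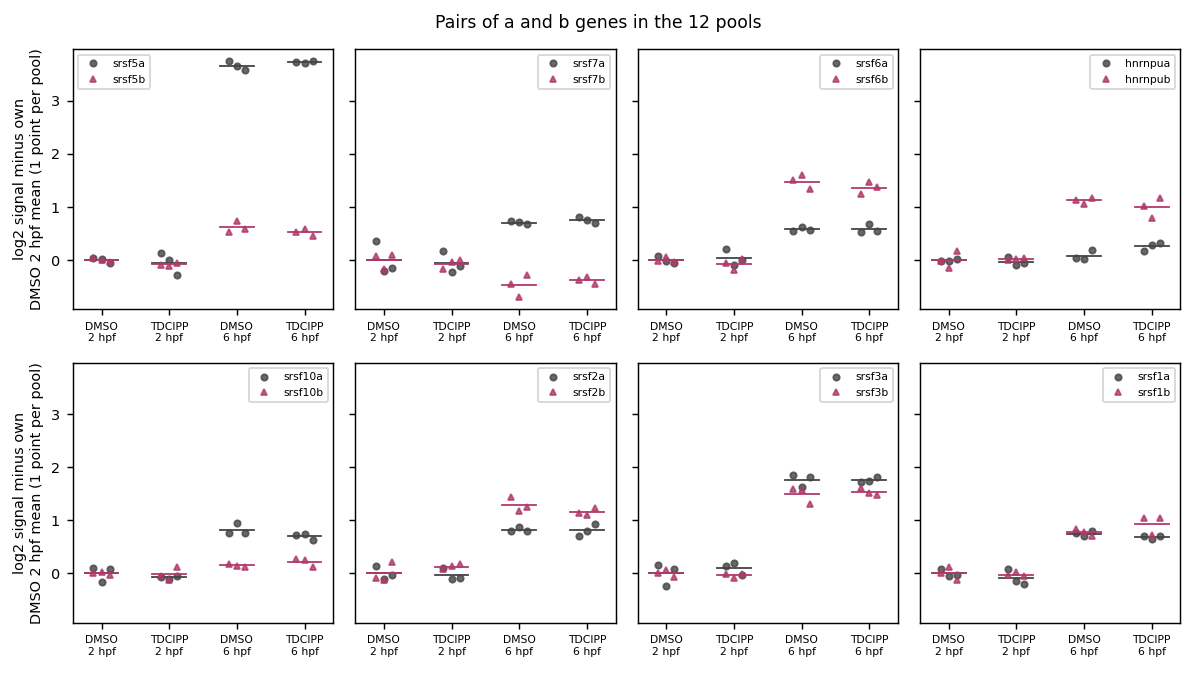
Log2 signal of the a gene (grey circles) and b gene (red triangles) of 8 pairs in each of the 12 pools, as the difference from the same gene's mean in the DMSO pools at 2 hpf, with a line at each group's mean. The copies part at 6 hpf for srsf5, srsf7, srsf6 and hnrnpu, by 3.11, 1.15, -0.90 and -0.86 log2 units, and stay close for srsf3 and srsf1.

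A second transcript cluster was measured for 4 of the genes. For sf3b1, snrpa and srsf1a its change in DMSO was 1.13, 0.41 and 0.74 log2 units, close to the 1.14, 0.42 and 0.75 of the cluster used. For hnrnpa0l the clusters disagreed, with 0.47 for the cluster used and -0.77 for the dimmer cluster in DMSO, and 0.52 and -0.98 in TDCIPP, so the direction of hnrnpa0l is uncertain.

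Centring each array on its median, in place of the values as deposited, lowered the median change of all clusters from 0.01 to -0.11 and that of the 56 genes from 0.72 to 0.59 log2 units in DMSO. It left 46 genes called higher and 3 lower in DMSO and 47 and 3 in TDCIPP. The counts for families and lists are for the values as deposited.

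Other genes of the splicing and mRNA export machinery were described by counts over 4 lists, to be read against the background shares of 20% higher and 19.9% lower in DMSO pools and 20.7% and 19.5% in TDCIPP pools. Of 56 measured genes of the other snRNPs and the spliceosome core, 40 rose and 4 fell in DMSO pools, and 36 and 4 did so in TDCIPP pools, with medians of 0.34 and 0.41 log2 units. With the smallest p in each direction, the helicase gene snrnp200 rose by 1.40 (SE 0.10) and the 3′ splice-site gene u2af1 by 1.23 in DMSO, while the second-step factor gene prpf18 changed by -0.86 and lsm4, of the Sm-like ring, by -0.79.

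Regulators were more mixed. Of 57 SR-related proteins, SR kinases and other splicing regulators, 28 rose and 12 fell in DMSO pools and 28 and 16 in TDCIPP pools, with a median of 0.26 in each. The share that fell in DMSO was close to the 19.9% of all clusters and below the 48.2% of the genes with a mean signal of at least 5. The epithelial splicing regulator gene esrp1 rose by 4.29 log2 units (SE 0.14) and the polypyrimidine tract-binding gene ptbp1a by 4.13 (SE 0.10) in DMSO. In the other direction, the SR-related gene srek1 changed by -1.48 and raver1, whose mammalian product binds the polypyrimidine tract-binding protein, by -0.75.

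Among the genes for snRNP assembly and import more fell than rose. Of 18 measured, 1 rose and 11 fell in DMSO pools, 1 rose and 12 fell in TDCIPP pools, and the medians were -0.64 and -0.61 log2 units. In DMSO pools 48.2% of the genes with a mean signal of at least 5 fell, with a median of -0.25, so the count lies nearer to that share than to the 19.9% of all clusters. The cap hypermethylase gene tgs1 changed by -2.23 (SE 0.12, limma adjusted p = 2.94e-09) and coil, for the scaffold of Cajal bodies in which snRNPs mature, by -2.06 (SE 0.11, adjusted p = 3.75e-09) in DMSO. The gene smn1, whose product loads Sm proteins onto small nuclear RNA, changed by -1.01. The gene that rose was the exportin gene xpo1b, at 0.70, and the next highest was gemin2, of the SMN complex, at 0.17 (adjusted p = 0.248). The Sm genes described above rose in the same pools, at a median of 0.79.

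Of 20 genes of the exon junction complex and of mRNA export, 11 rose and 2 fell in DMSO pools and 13 and 3 in TDCIPP pools, with medians of 0.32 and 0.35 log2 units. The exon junction genes rbm8a and eif4a3 rose by 1.19 and 0.69 in DMSO. The export receptor gene nxf1a changed by -1.95 and thoc3, of the THO complex, by -0.58.

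**Figure D4:**
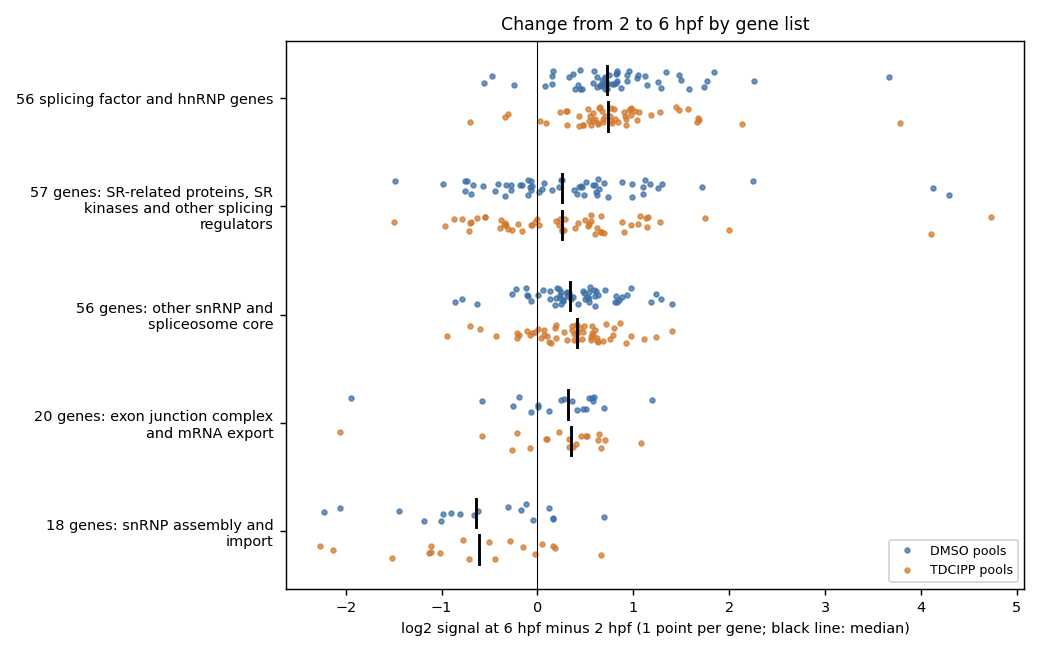
Change in log2 signal from 2 to 6 hpf in DMSO pools (blue) and TDCIPP pools (orange) for the 56 splicing factor and hnRNP genes and for 4 other lists, with 1 point per gene, spread vertically for legibility, and a black line at each median. In DMSO pools the medians run from 0.72 for the 56 genes to -0.64 for snRNP assembly and import.

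Exposure was compared within each stage to ask whether TDCIPP altered the levels of these genes. At 6 hpf none of the 56 genes passed (limma, adjusted p under 0.1, smallest adjusted p 0.938), with a background of 0% of all clusters, and 0 of 56 had an unadjusted p under 0.05, against 5.48% of all clusters. At 2 hpf 0 of 56 passed, with a background of 0%, and 0 of 56 had an unadjusted p under 0.05, against 2.77%. A plain test of 2 groups, without moderated variances, called 0 of 56 at each stage after adjustment. The comparisons here averaged the 2 arrays of a pool. The paper, whose input to a one-way analysis of variance was a signal file per array, reported affected transcripts at 6 hpf under a false discovery rate of 0.1. It reported none at 2 hpf.

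No interval reached a difference of 0.5 log2 units, and smaller differences were not excluded. Each gene's own 95% interval, for all 56 genes, lay within -0.44 to 0.42 log2 units at 6 hpf and within -0.44 to 0.47 at 2 hpf. The median difference was -0.01 at 6 hpf, with 33 genes lower and 23 higher in TDCIPP, and 0.02 at 2 hpf, with 24 lower and 32 higher. The comparisons at the 2 stages share no pools.

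At 6 hpf, the genes with the smallest unadjusted p were hnrnph1, hnrnpua, hnrnpm and snrpb2. The signals of hnrnph1 were 6.24, 6.40 and 6.47 with DMSO and 6.12, 6.14 and 6.25 with TDCIPP, a difference of -0.20 log2 units (95% interval -0.44 to 0.04). Those of hnrnpua were 9.42, 9.41 and 9.58 with DMSO and 9.56, 9.67 and 9.71 with TDCIPP, a difference of 0.18 (95% interval -0.05 to 0.41). The groups overlapped for both genes.

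For hnrnpm, the late pools already given differed by -0.17 (95% interval -0.39 to 0.05), with all 3 TDCIPP pools below all 3 DMSO pools. For snrpb2 the values were 10.26, 10.31 and 10.36 with DMSO and 10.47, 10.46 and 10.42 with TDCIPP, a difference of 0.14 (95% interval -0.07 to 0.35), without overlap. Such separation was found for 3 of the 56 genes in the higher direction and 4 in the lower at 6 hpf, against 11% of all clusters in either direction. At 2 hpf it was found for 1 of 56, srsf5b, which was lower with TDCIPP, against 7.39% of all clusters.

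At 2 hpf the genes with the smallest unadjusted p were snrpd2, hnrnph1 and srsf2b, with differences of 0.20 (95% interval -0.08 to 0.47), 0.16 (-0.15 to 0.46) and 0.13 (-0.13 to 0.38) log2 units. The pools of snrpd2 were 7.25, 7.14 and 7.43 with DMSO and 7.27, 7.56 and 7.58 with TDCIPP, so the groups overlapped.

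**Figure D5:**
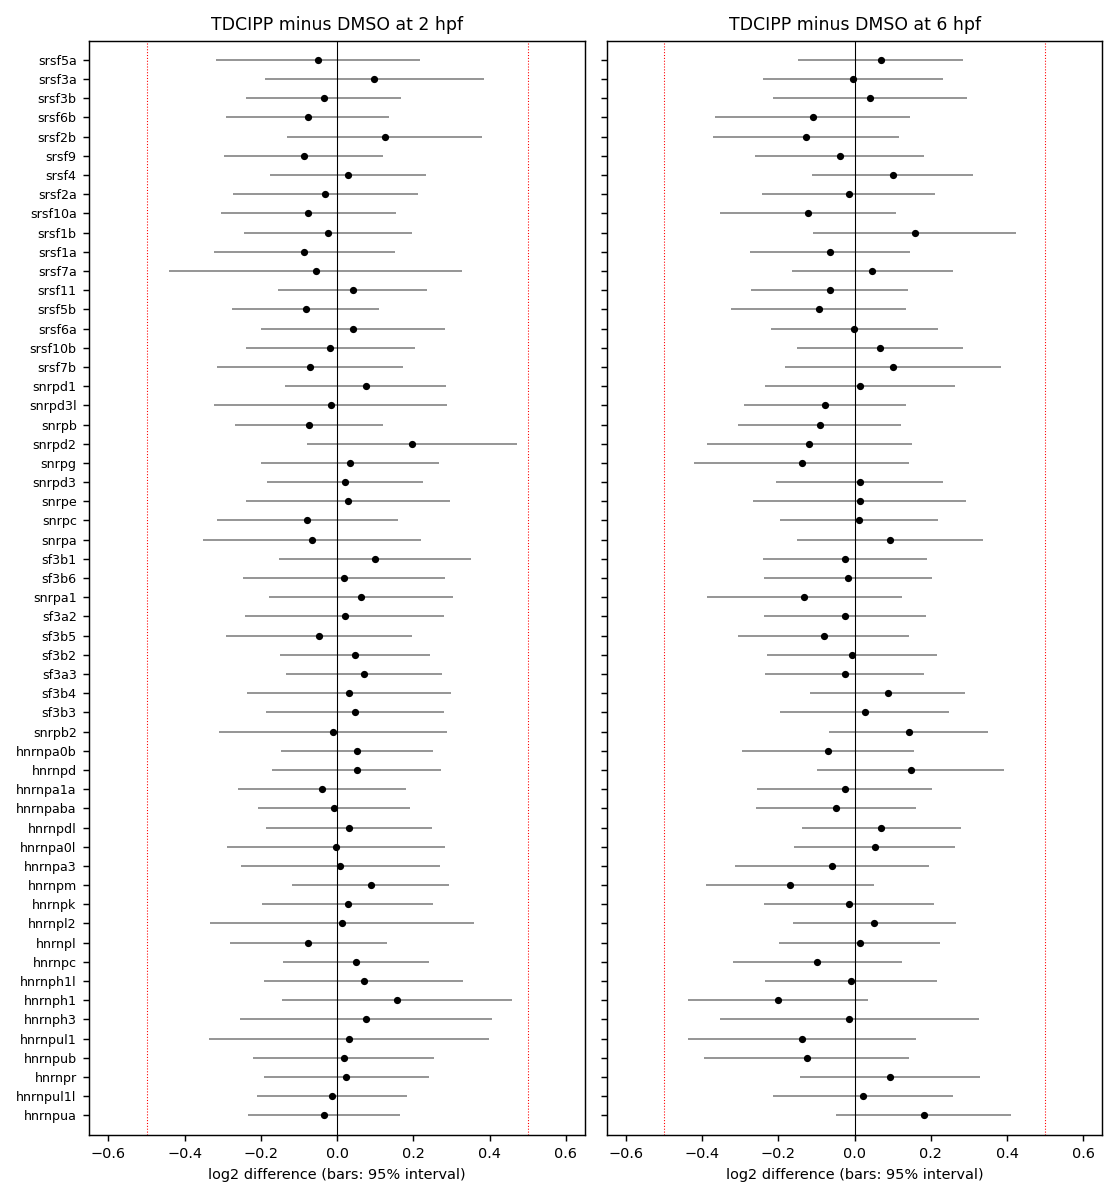
Difference in log2 signal between TDCIPP and DMSO pools (3 against 3) for each of the 56 genes at 2 hpf (left) and 6 hpf (right), with 95% intervals from the limma fit and dotted lines at -0.5 and 0.5. Every interval includes 0 and lies between the dotted lines.

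The change in the TDCIPP effect between stages was tested as an interaction over all 12 pools, and uses the same pools as the comparisons above. None of the 56 genes passed (smallest adjusted p 1.00, background 0%), and 0 of 56 had an unadjusted p under 0.05, against 4.32% of all clusters. The genes with the smallest unadjusted p were hnrnpm at -0.26 (95% interval -0.52 to 0.00), hnrnph1 at -0.36 (-0.73 to 0.01) and snrpd2 at -0.32 (-0.69 to 0.05) log2 units. For hnrnph1, the DMSO pools ran from 5.71 to 6.21 at 2 hpf, the widest spread of its 4 groups.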

How the data were processed

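The authors extracted total RNA from pooled embryos, amplified it with random primers, hybridized 24 arrays and summarized the scans per transcript cluster by robust multichip analysis (Expression Console). The version is not given in the sources used here. The deposited table holds these log2 signals for 75212 rows, without detection calls. The 13972 rows numbered below the first cluster of the study's own array table were left out. Gene symbols came from the platform annotation. No coordinates are given, because the annotation used to match current genes is of another build than the processing notes (GRCz10). No sequences were at hand, so none are given.

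The 2 arrays of a pool were averaged, and pools were compared by two-sided moderated tests (limma 3.58.1, functions lmFit and eBayes, under R 4.3.3), adjusted over 61240 clusters by Benjamini-Hochberg, with a threshold of 0.1 and a second of 0.05. Comparisons of treatments used the 6 pools of a stage and the others all 12. The script was tested on simulated data. Figures were drawn with matplotlib 3.10.9.

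Genes and lists were chosen with earlier results of these data known. The text names, for each family, the up to 3 widest rises and falls called in both treatments, for TDCIPP the 4 (6 hpf) or 3 smallest p-values, the 4 pairs with the widest gap, genes called in neither treatment and, per list, the 2 genes in each direction with the smallest p of the DMSO change. The names srsf5b, srsf6a, srsf10b, snrpe, hnrnpa0l and smn1 were added after their values were seen, and srsf1a is also named outside the rule. The replicates are separate beakers. Alternatives covered the arrays, block, test, centring, filters, rows and single pools.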

Additional observations from a re-analysis of the deposited data

How the results depend on the processing

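No call in the comparisons of TDCIPP with DMSO, or in the difference between stages, appeared under any alternative run. The medians of the 56 genes were small there and depended on the array: at 6 hpf -0.06474 with the first array of each pool and 0.03571 with the second, and for the difference between stages -0.08115 and 0.05015. Leaving out single pools gave -0.04034 to 0.02238 for that difference, the latter without replicate 2 of DMSO at 2 hpf. For the change from 2 to 6 hpf, the median became 0.5937 in DMSO and 0.5906 in TDCIPP after centring, 0.6786 in TDCIPP with the first array, and 0.7191 to 0.7782 in DMSO without single pools. The count of genes that fell was 1 in place of 2 in both treatments with the filter on mean signal, which removes srsf7b. In TDCIPP it was also 1 with the first array and at an adjusted p under 0.05, and 1 to 2 without single pools. Of the genes named by the fixed rule for a comparison, 1012 values under the alternatives kept their direction and side of the threshold and 6 lost the call, all 6 those of srsf7b in TDCIPP, with adjusted p-values of 0.0586 to 0.189. The gene srsf10b, named outside that rule, was also not called at 0.05 in TDCIPP (adjusted p = 0.0649), and its other alternatives were not computed. For the change over time, the fixed rule took only genes already called in both treatments. For TDCIPP against DMSO at 6 hpf, the smallest limma adjusted p was 0.938. Most of the tallied values therefore had little room to cross the threshold, and the tally says little about genes closer to it.

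Without a replicate number, the gaps within pairs ranged from 3.039 to 3.187 for srsf5, 1.047 to 1.293 for srsf7, -0.9564 to -0.837 for srsf6, -0.9005 to -0.7945 for hnrnpu, 0.5435 to 0.6676 for srsf10 and -0.4311 to -0.1631 for srsf2. With so few pools the smallest exact p is 0.0556, so none can pass. With the first array the srsf2 gap was -0.1887 (exact p = 0.125), and with the second array the srsf3 gap was 0.2402 (exact p = 0.045).

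Replicate numbers are shared between groups. Deviations of same-numbered pools correlated at 0.0888 to 0.183 between treatments at 6 hpf, 0.0522 to 0.249 at 2 hpf, -0.0102 to 0.0982 over time in DMSO and -0.0251 to 0.0139 in TDCIPP, and each pool correlated best with its own number for 3 of 3, 2 of 3, 2 of 3 and 0 of 3. The numbers were not taken as pairs. With the replicate block, 49 genes rose and 2 fell in DMSO, 51 rose and 3 fell in TDCIPP, and 0 passed for TDCIPP against DMSO. A count of 3 pools per group and signals near or below the array medians limit what can be seen for srsf7b, hnrnpa3 and hnrnph3.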

Other observations

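Replicate 2 of DMSO at 2 hpf gave the lowest of the 3 signals for 29 of the 56 genes, and replicate 2 of TDCIPP at 2 hpf did so for 25. At 6 hpf the counts of lowest signals ran from 10 to 26 per pool. The same counts over all clusters were not made, so whether this is particular to these genes is not known.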
